A study of Mus musculus with 154 samples.

Results

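Liver RNA was compared between mice in which A/J chromosomes 4 and 14 were present together and mice that carried only one of them or neither. The double strain was (B6.A4 X B6.A14)F1, written with the sire first, and 4 of its 5 mice were used, out of 154 mice from 24 strains in the series. The single strains were (B6 X B6.A14)F1 with 8 mice, called A14 here, and (B6.A4 X B6)F1 with 8 mice, called A4 here. B6 (C57BL/6J, 20 mice) was the control. B6.A4 and B6.A14 are chromosome substitution strains, in which 1 chromosome of the C57BL/6J genome has been replaced by that of A/J, so each F1 mouse was heterozygous for the substituted chromosome or chromosomes and otherwise B6. All mice were 5 weeks old, fasted overnight and, by the study's methods, male, they received no treatment, and RNA came from the caudate lobe of the liver. Each cross was bred in several cages, and the labels do not tie mice to cages.

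The 4 strains shared the C57BL/6J background, so the A/J alleles of one chromosome could be read with and without those of the other. If both chromosomes acted independently on the log2 scale, the double strain would differ from B6 by the sum of the A4 and A14 effects. The interaction given below is the difference between the double strain and that sum, and a positive interaction means that a transcript was more abundant than the sum. The second comparison is the double strain directly against B6. Both were tested for 13289 genes with edgeR's quasi-likelihood F-test in a model of all 24 strains, and a gene was called at a false discovery rate (FDR) under 0.05. Levels are CPM (reads of a gene scaled to library size) after TMM scaling, given per mouse and not corrected for the 5 surrogate variables of the model, whereas log2 differences, given ± SE, are corrected for them.

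The libraries of the double strain held 10478416, 10917451, 19607322 and 12720317 counted reads in replicates 1, 2, 4 and 5, against 6752637 to 25630807 in B6. Replicate 3 was left out because it stood apart from its label. Its 4 Y-linked genes summed to 2.94 CPM, where all other mice of the series had 227.5 to 432 CPM, and its 12 female-biased liver transcripts summed to 2664 CPM, where the others had 98.2 to 730 CPM. The other 4 mice were checked with 20 genes on the substituted chromosomes that had the smallest p-values in the single strains. Of the 10 genes on chromosome 4, 10, 10, 10 and 9 lay on the A4 side of the B6 median in replicates 1, 2, 4 and 5, and of the 10 on chromosome 14, 10, 9, 10 and 9 lay on the A14 side. In replicate 3, 9 of the chromosome 14 genes were on the A14 side and 5 of the chromosome 4 genes on the A4 side. Of those 10 chromosome 4 genes 4 encode major urinary proteins, which are male-biased in liver, and the Cyp4a32 level of replicate 3, 147 CPM, was above all B6 mice. Which substituted chromosomes it carried was not tested further. Replicate 2 was beyond the whole B6 range for 3 of the chromosome 14 genes and the other mice for 6 or 7. Hepatocyte transcripts (12 markers) summed to 117105 to 125052 CPM in the double strain, 68669 to 142220 CPM in A14 and 115101 to 176961 CPM in B6.

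The interaction was called for 257 of 13289 genes (1.93%), 154 of them higher (1.16%) and the rest lower (0.775%) than the sum of both single effects. Several of the genes with the smallest p-values on the higher side act in the endoplasmic reticulum (ER) and the early secretory pathway. Among them are Dnajb9, Sec23b, Eif2ak3, Creb3l2 and Alg2, in which the double strain was higher than the additive expectation in 4 of 4 mice. These genes were picked by that same difference, so the count of mice is not independent evidence. The median absolute interaction of the called genes was 0.56 on the log2 scale, and the median SE of an interaction over all genes was 0.16. Of the 257 genes, 233 lay outside the substituted chromosomes (1.93% of 12053), 13 lay on chromosome 4 (1.61% of 806) and 11 on chromosome 14 (2.56% of 430). The direct comparison of the double strain with B6 called 1243 genes (9.35%), 622 higher (4.68%) and 621 lower (4.67%). There the share was 18% on chromosome 4 and 18.8% on chromosome 14, against 8.44% elsewhere. The number of called genes depended on single mice: the interaction was called for 127 genes without replicate 5, and the direct comparison for 770, 502 and 738 genes without replicates 1, 2 and 5. Both comparisons share the double strain and B6, so the values of each are given side by side below.

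The ER folds and glycosylates the proteins that hepatocytes secrete. Unfolded proteins are sensed there by Eif2ak3 (PERK), Ern1 (IRE1) and Atf6. IRE1 splices the mRNA of Xbp1, whose protein switches on chaperones, the machinery that returns misfolded proteins to the cytosol for degradation (ERAD) and components of the vesicles that leave the ER. In the liver this program also answers to feeding and fasting.

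Dnajb9 encodes ERdj4, a co-chaperone of the ER chaperone BiP that delivers misfolded proteins to degradation (chr12:44205559-44210326 in GRCm38). Its level was 49.98, 50.2, 52.4 and 70.3 CPM in the 4 mice of the double strain. In A14 it ranged from 26.6 to 43.1 CPM (median 35.6), in A4 from 24.1 to 33.5 CPM (median 30.9) and in B6 from 27.2 to 54.2 CPM (median 36.0). All 4 mice of the double strain were above every mouse of both single strains and above the B6 median, while they overlapped with the highest B6 mouse. The additive expectation from the geometric means was 27.2 CPM. The interaction was 1.17 ± 0.18 (adjusted p = 5.97e-06), and the double strain was higher than B6 by 0.61 ± 0.12 (adjusted p = 0.00024), where the single effects were -0.16 ± 0.10 for A14 and -0.40 ± 0.10 for A4.

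Syvn1 encodes HRD1, the ubiquitin ligase at the centre of ERAD (chr19:6046576-6053712). It was at 18.8, 21.5, 21.7 and 27.7 CPM in the double strain, with medians of 11.8 CPM in A14, 13.6 CPM in A4 and 13.4 CPM in B6. Again every mouse of the double strain was above all mice of A14 (highest 15.02 CPM) and A4 (highest 16.6 CPM). The interaction was 0.84 ± 0.19 (adjusted p = 0.00709) and the difference from B6 0.67 ± 0.13 (adjusted p = 0.000143), with single effects of -0.07 ± 0.11 and -0.11 ± 0.11.

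Among the sensors and transcription factors, Eif2ak3, Creb3l2 and Xbp1 were higher than the sum, 3 of 9 measured genes, and none was lower. Over all genes 1.16% were higher and 0.775% lower. Eif2ak3 encodes the kinase PERK (chr6:70844515-70905245). Its level was 18, 20.7, 15.1 and 19.5 CPM in the double strain, against 9.97 to 13.7 CPM in A14, 9.49 to 15.5 CPM in A4 and 10.4 to 17.8 CPM in B6. The 4 mice were above all A14 mice, and 1 of them was within the range of A4. The interaction was 0.87 ± 0.15 (adjusted p = 0.000221). Creb3l2, an ER-bound transcription factor of the CREB family that activates genes of the secretory pathway, was at 12.3, 13.1, 15.2 and 15.8 CPM in the double strain and had medians of 8.40 CPM in A14, 10.5 CPM in A4 and 10.5 CPM in B6. Its interaction was 1.19 ± 0.22 (adjusted p = 0.000355), and its difference from B6 was 0.38 ± 0.15 (adjusted p = 0.0816), which missed the threshold. Xbp1 was at 153.8, 222, 131.8 and 142 CPM against medians of 123, 113 and 139 CPM in A14, A4 and B6, and replicate 2 was the highest. The Xbp1 interaction was 0.60 ± 0.13 (adjusted p = 0.00381). The count table holds gene totals, so splicing of Xbp1 was not measured. Creb3l3, a liver factor of the same family that regulates fasting genes, had an interaction of -0.03 ± 0.11 and was lower than B6 by -0.36 ± 0.08 (adjusted p = 0.00188).

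Export from the ER was represented by Sec23b, a subunit of the COPII vesicle coat (chr2:144556229-144590749). Its level was 42.3, 44.5, 31.3 and 37.9 CPM in the double strain, and all 4 mice were above the highest A14 mouse (29.0 CPM) and the highest A4 mouse (28.2 CPM). In B6 the range was 23.5 to 45.04 CPM (median 28.5), so the double strain overlapped with it. The interaction was 0.83 ± 0.13 (adjusted p = 1.79e-05). Sec24c, a cargo-binding COPII subunit on chromosome 14, had an interaction of 0.44 ± 0.13 (adjusted p = 0.046) and did not differ from B6 past the threshold (-0.13 ± 0.09, adjusted p = 0.363). Its interaction call was lost without replicate 2, 4 or 5. Sec23b and Sec24c were the 2 called members of 27 measured genes of ER entry and COPII transport, where 1.16% of all genes were called higher.

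In the ERAD list, 4 of 16 measured members had a higher interaction, as had 1.16% of all genes, and none a lower one. Besides Syvn1 these were Sel1l, the partner of HRD1, with 0.38 ± 0.11 (adjusted p = 0.0372), the mannosidase-like Edem3 with 0.35 ± 0.10 (adjusted p = 0.0302) and the lectin Os9 with 0.41 ± 0.11 (adjusted p = 0.0302). Against B6 none of Sel1l (0.21 ± 0.08, adjusted p = 0.0581), Edem3 (0.16 ± 0.07, adjusted p = 0.123) and Os9 (-0.15 ± 0.08, adjusted p = 0.258) passed. A14 alone was lower than B6 for Os9 (-0.42 ± 0.07). The count of ERAD interaction calls was 2 without replicate 4 or without replicate 5. Of 22 ER chaperones and folding enzymes, Dnajb9 was the 1 gene called in the interaction. The 4 ER lists together held 74 measured genes, of which 10 were called in the interaction (13.5%), all higher, against 1.93% of all genes. Their median interaction was 0.06, against 0.0027 over all genes. These lists were chosen with earlier results of these data known. Of the called genes, Dnajb9, Sec23b, Eif2ak3 and Syvn1 had also been chosen on these samples for RT-qPCR. The share of 13.5% is therefore not independent evidence.

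**Figure D1:**
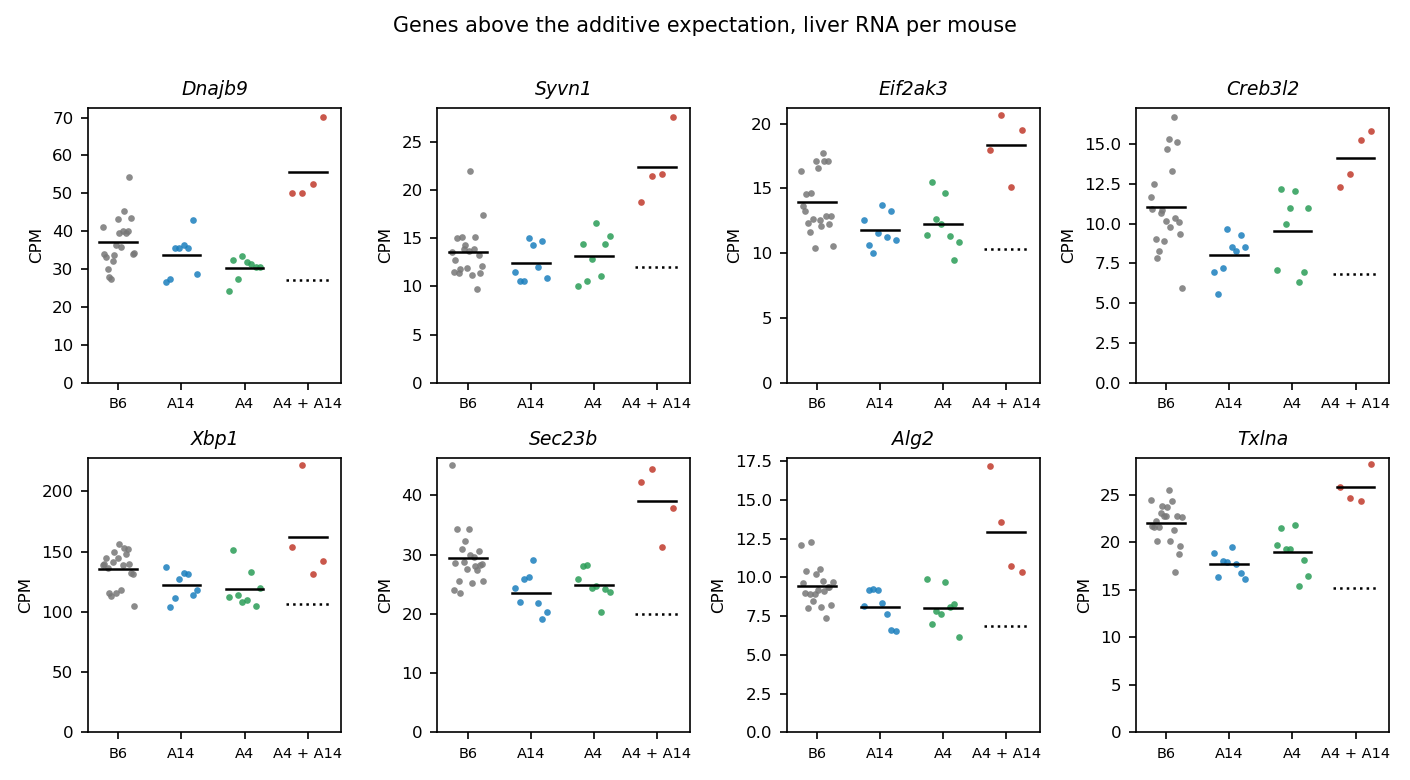
Levels in CPM of 8 transcripts with a positive interaction, 1 point per mouse, for B6, A14, A4 and the double strain (A4 + A14). Solid lines are means and the dotted line is the additive expectation from the geometric means of the other 3 groups. All 4 mice of the double strain lie above the dotted line in each panel, and for Dnajb9, Syvn1, Creb3l2, Sec23b, Alg2 and Txlna also above every A14 and A4 mouse. The genes were chosen for a positive interaction in these same mice.

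Promoters of the called ER genes were searched for the ER stress element, CCAAT followed after 9 bases by CCACG, which is bound by ATF6 together with NF-Y, for CCACG alone and for TGACGTGG, on both strands. The windows run from 250 bases before to 50 bases after each RefSeq start in GRCm38.p6, and all 10 called ER genes had one. The full element was found in 1 of them, Syvn1, and in 0.137% of all 27025 genes with a listed promoter. CCACG alone was present for 6 of the 10 genes and for 35.5% of all genes, and TGACGTGG for 0 of the 10 and for 0.714%. Neither the full element nor CCACG nor TGACGTGG stood in the windows of Sec23b, Eif2ak3, Creb3l2 or Xbp1, and CCAAT alone was not counted. The windows of Dnajb9 (chr12:44210019-44210318, minus strand) and Syvn1 (chr19:6046326-6046625, plus strand) are shown because they hold matches for the ER gene with the smallest p-value and for the gene with the full element. Capitals mark CCACG in Dnajb9, and CCAAT and CCACG of the element in Syvn1, so its CCACG match is the one inside the element.
Dnajb9: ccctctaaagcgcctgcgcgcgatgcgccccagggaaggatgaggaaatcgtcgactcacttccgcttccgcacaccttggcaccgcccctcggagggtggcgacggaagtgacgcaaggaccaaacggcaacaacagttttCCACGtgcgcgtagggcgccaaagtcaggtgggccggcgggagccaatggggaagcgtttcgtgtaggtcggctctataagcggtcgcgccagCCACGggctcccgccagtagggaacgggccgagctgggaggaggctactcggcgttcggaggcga
Syvn1: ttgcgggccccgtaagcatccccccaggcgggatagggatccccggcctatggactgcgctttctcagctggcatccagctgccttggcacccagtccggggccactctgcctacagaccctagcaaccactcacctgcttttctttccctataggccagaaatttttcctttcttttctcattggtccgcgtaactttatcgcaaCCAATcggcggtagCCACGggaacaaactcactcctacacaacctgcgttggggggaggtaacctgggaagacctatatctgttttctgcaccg

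The remaining genes with the smallest p-values on the higher side were Txlna, Slc30a5, Alg2 and Ppat. Txlna encodes taxilin alpha, a binding partner of syntaxins in vesicle traffic, and lies on chromosome 4 (chr4:129626078-129641065). Its level was 25.8, 24.7, 24.4 and 28.2 CPM in the double strain, above all A14 mice (16.1 to 19.5 CPM) and all A4 mice (15.4 to 21.8 CPM) and overlapping with B6 (16.9 to 25.5 CPM). The interaction of 0.68 ± 0.10 had the smallest adjusted p on the higher side (4.64e-07). Alg2, a mannosyltransferase of N-glycan synthesis on the same chromosome (chr4:47465067-47474333), was at 17.2, 13.6, 10.7 and 10.4 CPM and had medians of 8.22, 7.96 and 9.27 CPM in A14, A4 and B6. The Alg2 interaction was 0.80 ± 0.15 (adjusted p = 0.000186). Slc30a5, a zinc transporter of the early secretory pathway, was at 35.5, 42.6, 44.7 and 44.5 CPM and overlapped with all other groups, with an interaction of 0.48 ± 0.08 (adjusted p = 3.2e-05).

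Ppat, the first enzyme of purine synthesis, showed another arrangement of the same sign. It was at 25.9, 22.7, 30.4 and 38.3 CPM in the double strain, with medians of 23.0 CPM in A14, 24.3 CPM in A4 and 33.7 CPM in B6. Both single strains were lower than B6 (-0.54 ± 0.09 and -0.49 ± 0.09), and the double strain differed from B6 by -0.16 ± 0.12 (adjusted p = 0.424), which gives an interaction of 0.87 ± 0.17 (adjusted p = 0.000855). Cers6, a ceramide synthase that makes C16 ceramides, followed the same arrangement. Its level was 24.7, 26.6, 28.3 and 30.5 CPM in the double strain and had medians of 17.1, 16.9 and 25.5 CPM in A14, A4 and B6. The Cers6 interaction was 1.37 ± 0.27 (adjusted p = 0.00125), where its difference from B6 was 0.24 ± 0.19 (adjusted p = 0.473). Hnf4a, a nuclear receptor that maintains hepatocyte gene expression, was at 668, 687, 602 and 669 CPM against a median of 638 CPM in B6, 475 CPM in A14 and 543 CPM in A4. Its interaction was 0.64 ± 0.14 (adjusted p = 0.00393) and its difference from B6 0.05 ± 0.10. Klhl21, an adaptor of a ubiquitin ligase on chromosome 4, had an interaction of 1.04 ± 0.23 (adjusted p = 0.00366), and Naa16, an acetyltransferase subunit on chromosome 14, one of 0.57 ± 0.13 (adjusted p = 0.0105).

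Genes of ribosome biogenesis were also called only on the higher side, 3 of 18, where 1.16% of all genes were. These were the nucleolar protein gene Nol8 with an interaction of 0.56 ± 0.14 (adjusted p = 0.0168), the RNA polymerase I subunit gene Polr1b with 0.49 ± 0.12 (adjusted p = 0.0134) and Utp20, of the small subunit processome, with 0.47 ± 0.12 (adjusted p = 0.0163). Nol8 was at 26.9, 30.3, 24.6 and 27.0 CPM in the double strain, above all A4 mice (14.7 to 24.2 CPM) and overlapping with A14 and B6. Without replicate 2 the list kept 1 call. Among 19 measured ATF4 targets, which answer to PERK and amino acid shortage, the interaction was called for Ddit3 alone (0.99 ± 0.26, adjusted p = 0.0248), at 3.18 to 6.12 CPM in the double strain. This call was lost without replicate 1 or 5.

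On the lower side, the single strains were higher than B6 in most of the genes with the smallest p-values and the double strain was not higher still. Pou2f1, a widely expressed transcription factor (OCT1), was at 26.6, 21.4, 20.5 and 10.5 CPM in the double strain, with medians of 23.3, 22.9 and 16.1 CPM in A14, A4 and B6. Its interaction was -0.82 ± 0.19 (adjusted p = 0.00713), with single effects of 0.46 ± 0.10 and 0.59 ± 0.10. Replicate 5 was the lowest of the 4 mice. Ptpn4, a tyrosine phosphatase, was at 34.1, 36.1, 35.0 and 29.7 CPM, with medians of 40.7, 36.7 and 29.5 CPM in A14, A4 and B6, and had an interaction of -0.56 ± 0.13 (adjusted p = 0.0112). The deubiquitinase Usp34 was at 121, 102, 109.9 and 109.9 CPM and had medians of 112, 130.8 and 95.9 CPM, with an interaction of -0.40 ± 0.09 (adjusted p = 0.00988). The phosphatase gene Cdc14b (-0.60 ± 0.14, adjusted p = 0.00882), Lmbrd2 (-0.59 ± 0.14, adjusted p = 0.0112) and the kinase gene Dyrk2 (-0.45 ± 0.11, adjusted p = 0.0117) had positive effects in both single strains as well. Of these 6 genes, Dyrk2 alone differed from B6 in the double strain (0.28 ± 0.07, adjusted p = 0.00777). On chromosome 14 the lower side held Rbm26, an RNA-binding protein gene (-0.33 ± 0.09, adjusted p = 0.0328), and Mbl1, a mannose-binding lectin of the complement system (-0.54 ± 0.15, adjusted p = 0.0329), and both calls were lost without replicate 2 or 5.

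Fcgr2b, an inhibitory IgG receptor that liver sinusoidal endothelial cells carry, was at 29.0, 29.7, 32.2 and 30.4 CPM in the double strain. All 4 mice were below every A14 mouse (34.9 to 53.4 CPM) and overlapped with A4 (28.2 to 42.2 CPM) and B6 (26.5 to 43.5 CPM). The interaction was -0.56 ± 0.13 (adjusted p = 0.0111), with single effects of 0.37 ± 0.07 for A14 and 0.02 ± 0.07 for A4. Of the 10 sinusoidal endothelial markers, 3 had a lower interaction, as had 0.775% of all genes, and none a higher one. Besides Fcgr2b these were the VEGF receptor Kdr (-0.40 ± 0.10, adjusted p = 0.0139) and the lectin Clec4g (-0.57 ± 0.17, adjusted p = 0.0478). The summed level of the 10 markers was 413.15 to 453 CPM in the double strain, 452 to 581 CPM in A14, 418 to 456 CPM in A4 and 398 to 506.4 CPM in B6. Against B6 itself, none of Fcgr2b (-0.17 ± 0.09, adjusted p = 0.286), Kdr (-0.12 ± 0.07, adjusted p = 0.286) and Clec4g (0.33 ± 0.12, adjusted p = 0.0577) passed. The lower interactions are thus relative to the sum of both single effects. In bulk liver, a change in the number of cells of a type and one in RNA per cell cannot be told apart. Without replicate 5 the list kept 1 call. Of 10 Kupffer cell, 10 stellate cell, 5 cholangiocyte, 5 lymphocyte and 6 erythroid markers, 0 were called in the interaction by edgeR, with 1, 3, 0, 0 and 1 at an unadjusted p under 0.05 and 0, 1, 0, 0 and 0 called by DESeq2. In all, 18 of the 32 gene lists had no member called in the interaction by edgeR, and of their 234 genes 42 had an unadjusted p under 0.05 and 2 were called by DESeq2.

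**Figure D2:**
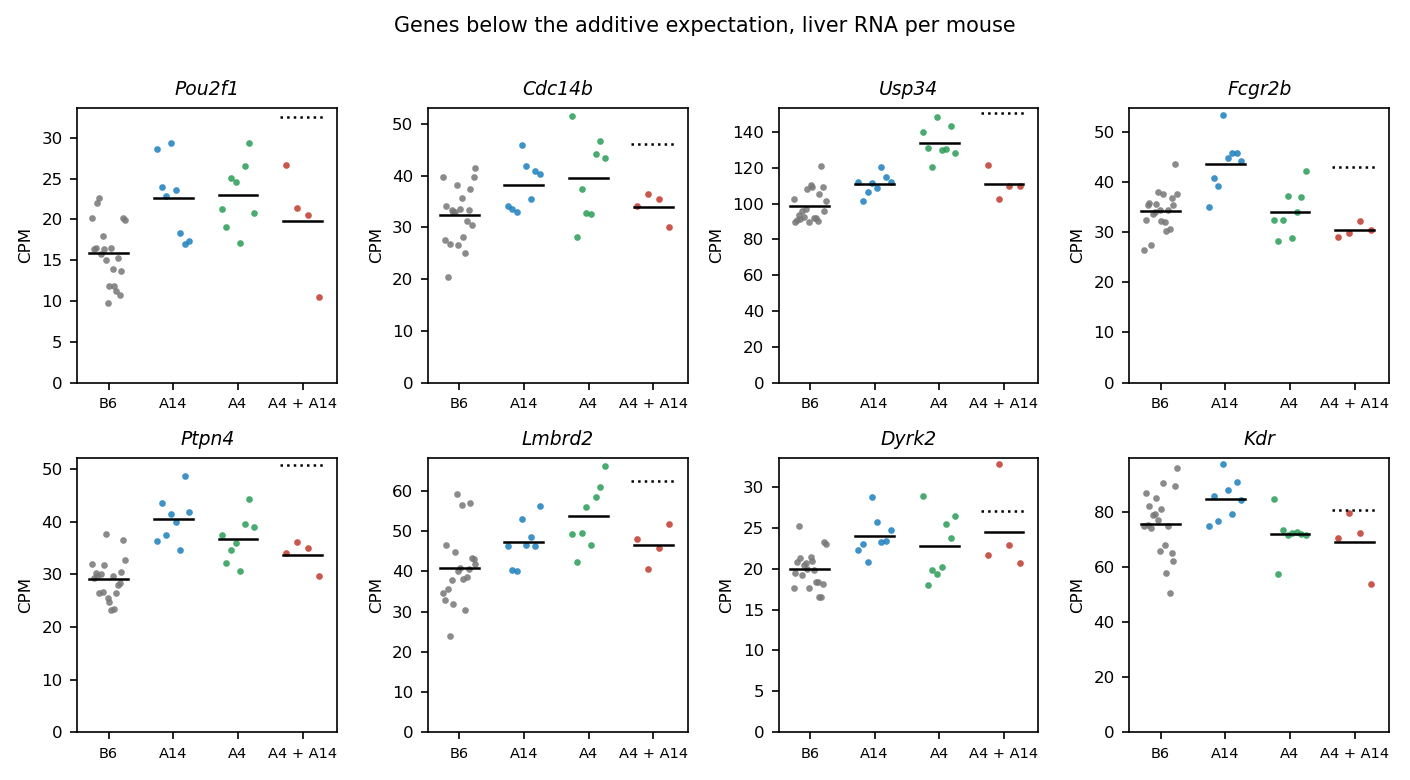
Levels in CPM of 8 transcripts with a negative interaction, 1 point per mouse, with means (solid lines) and the additive expectation (dotted line). The double strain lies below the expectation in all 4 mice for all genes shown but Dyrk2, which has 1 mouse above it. The genes were chosen for a negative interaction in these same mice.

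The interaction furthest from 0 was that of Rprl3, a small RNA gene annotated as ribonuclease P RNA-like 3 (chr8:3803069-3803358 in GRCm38, minus strand). It was at 60.1, 67.4, 123 and 134 CPM in the double strain, from 47.4 to 130.8 CPM in A14 and from 55.9 to 98.4 CPM in A4. In all 20 B6 mice it was between 0 and 0.461 CPM, from 0 to 9 counted reads per library. Either chromosome alone thus went with the level seen with both, and the interaction was -9.22 ± 0.39 (adjusted p = 7.76e-45). The fitted size rests on the few counts in B6 and depends on how these are handled. In the whole series, the 44 mice of the 8 strains with an A/J chromosome 4 or 14 had 29.6 to 134 CPM, and the 109 mice of the 16 strains with neither had 0 to 2.76 CPM. The gene itself lies on chromosome 8, and strains with an A/J chromosome 8 but neither 4 nor 14 were in the low group.

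The annotated Rprl3 transcript has 290 bases and is shown because reads of near-identical genes can be split between copies.
Rprl3: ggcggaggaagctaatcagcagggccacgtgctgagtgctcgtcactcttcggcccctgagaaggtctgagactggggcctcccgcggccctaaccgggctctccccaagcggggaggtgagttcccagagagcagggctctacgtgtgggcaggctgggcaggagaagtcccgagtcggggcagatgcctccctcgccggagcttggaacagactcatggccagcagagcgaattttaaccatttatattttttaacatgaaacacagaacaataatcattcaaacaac
Of its windows of 50 bases, the length of the reads, 7 (2.9%) also occurred in another GENCODE transcript, in each case the paralog Rprl2. None was identical to a stretch of Rpph1, the RNA component of ribonuclease P on chromosome 14, while 54 differed from it by at most 2 bases. Rpph1 was at 705 to 2295 CPM in B6 and 791 to 1789 CPM in the double strain. The level of Rprl3 is therefore uncertain as to its source copy, and the part of read assignment in this pattern was not tested.

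**Figure D3:**
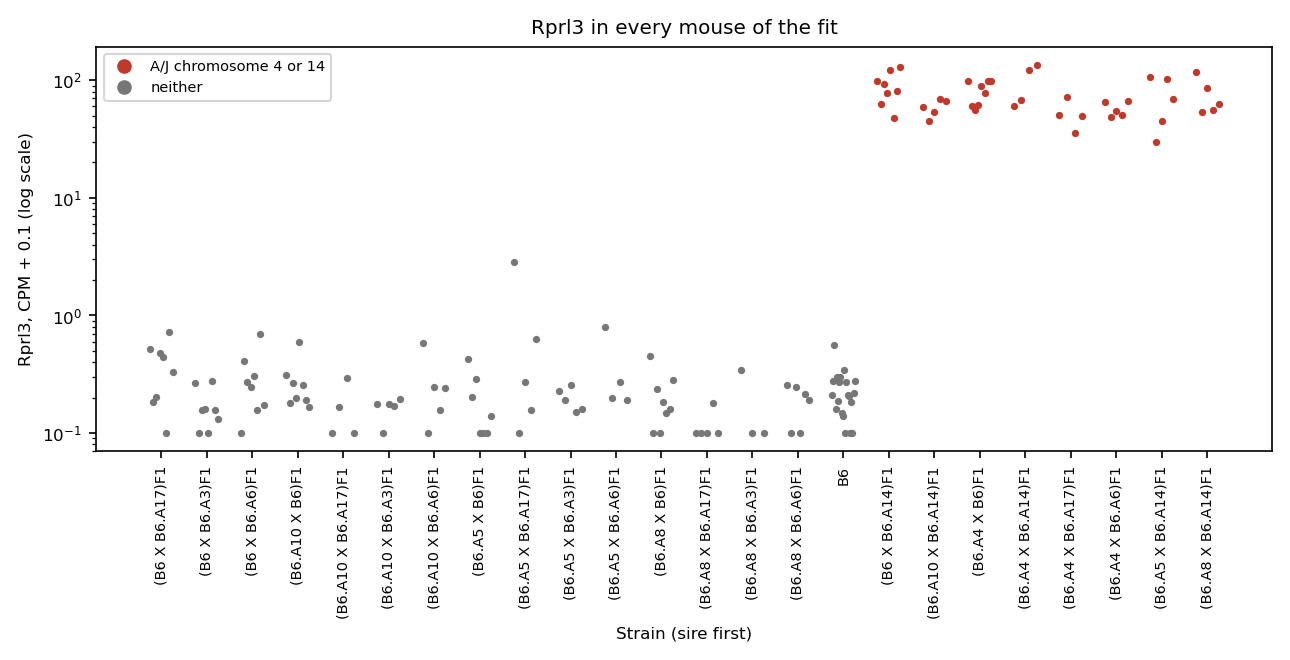
Rprl3 level (CPM + 0.1, log scale) in all mice of the model, by strain. All 44 mice with an A/J chromosome 4 or 14 (red) lie at 29.6 CPM or above, and all 109 others (grey) at 2.76 CPM or below.

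The genes that had been chosen on these samples for RT-qPCR are not independent evidence. In the sequencing counts 6 of these 14 genes had a higher interaction (Dnajb9, Cers6, Sec23b, Eif2ak3, Syvn1 and Nol8) and 1 a lower one (Rprl3). Zbtb20 (-0.33 ± 0.15, adjusted p = 0.237), Raph1 (-0.27 ± 0.11, adjusted p = 0.17), Mcm10 (-0.78 ± 0.27, adjusted p = 0.0991) and Slc12a2 (-0.23 ± 0.15, adjusted p = 0.414) did not pass. Igfbp3 (0.07 ± 0.18) and Ldha (0.20 ± 0.17) were close to additive and also did not pass. With replicate 3 included, Mcm10 passed as well, at -0.91 ± 0.27 (adjusted p = 0.031). Cyp3a16, a female-biased cytochrome P450, was at 2.81, 2.90, 2.24 and 2.61 CPM in the 4 mice used and at 62.5 CPM in replicate 3. Its interaction was -0.24 ± 0.82 without that mouse and 1.86 ± 0.99 with it, and neither passed.

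Compared directly with B6, the gene with the smallest p-value was Rprl3, higher by 9.35 ± 0.24 (adjusted p = 6.06e-70), a size that again rests on the few counts in B6. Other genes with small p-values lay on the substituted chromosomes. Cyp4a32, a fatty acid hydroxylase on chromosome 4, was at 115.6, 143, 236 and 107 CPM in the double strain and between 14.1 and 56.6 CPM in B6, with a difference of 2.14 ± 0.15 (adjusted p = 1.28e-26). All 4 mice were above every B6 and A14 mouse and overlapped with A4 (168 to 255 CPM). Arhgef40, on chromosome 14, was at 15.1, 18.7, 15.8 and 12.8 CPM, above all B6 (6.90 to 10.8 CPM) and A4 mice, and higher than B6 by 0.81 ± 0.11 (adjusted p = 6.49e-10). Socs4, a suppressor of cytokine signalling on chromosome 14, was higher by 0.61 ± 0.08 (adjusted p = 1.25e-10), and Fam213b, a prostamide synthase on chromosome 4, by 1.44 ± 0.19 (adjusted p = 6.15e-10). The interactions of these 4 genes were between -0.34 and -0.06 and did not pass, with adjusted p-values from 0.216 to 0.849.

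Major urinary proteins are lipocalins that male mouse liver secretes in large amounts, and their genes lie in a cluster of near-identical copies on chromosome 4, so that reads can be assigned to a wrong copy. Mup9 was at 115.7, 198, 62.8 and 97.8 CPM in the double strain, from 0.939 to 9.51 CPM in B6, from 3.56 to 36.2 CPM in A14 and from 11.7 to 159 CPM in A4. Every mouse of the double strain was above every B6 and A14 mouse. The difference from B6 was 5.17 ± 0.35 (adjusted p = 1.28e-26), and the effect of A14 alone, which leaves the cluster on chromosome 4 as in B6, was 2.48 ± 0.36. Mup12 differed by 3.97 ± 0.33 and Mup17 by 4.81 ± 0.63, with interactions of -1.86 ± 0.57 and -3.75 ± 1.16 that fell just short of the threshold (adjusted p = 0.0508 for both). Of 24 male-biased liver transcripts 8 were higher than B6 (4.68% of all genes were) and none lower, and 5 of the 8 were major urinary protein genes. These 5 and Cyp4a12a lie on the substituted chromosome 4, where 80 of 806 genes were higher. The other called members, Elovl3 and Gstp1, lie on chromosome 19. The median difference of the list was 0.46, with medians of 0.87 for A14 and 0.84 for A4. The count was 5 without replicate 1 or without replicate 2. The interaction was lower for 2 of the 24, where it was for 0.775% of all genes. These 2 were Elovl3, a fatty acid elongase (-2.20 ± 0.65, adjusted p = 0.0492), and Nat8 (-2.26 ± 0.54, adjusted p = 0.0121), and both calls were lost without replicate 5. Nat8 had a low level, with an average log2 CPM of 0.55. The summed level of the 24 transcripts was 23573 to 32604 CPM in the double strain and 12551 to 29737 CPM in B6. Their spread among the B6 mice was wide: Mup17 alone ranged from 1.19 to 99.95 CPM there.

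ER chaperones formed the clearest group among the genes higher than in B6. Of 22 measured chaperones and folding enzymes, 10 were higher and none lower, where 4.68% of all genes were higher. The median difference was 0.18 in the double strain, with medians of -0.00 for A14 and 0.19 for A4, so A4 alone had a similar median. Creld2, a calcium-binding ER stress protein, was at 26.5, 63.3, 29.7 and 56.2 CPM in the double strain and between 9.51 and 33.5 CPM in B6 (median 15.8), a difference of 1.27 ± 0.22 (adjusted p = 2.4e-05). Sdf2l1 differed by 1.07 ± 0.21 (adjusted p = 0.00033) and the secreted ER protein Manf by 0.88 ± 0.18 (adjusted p = 0.000478). The effects of A4 alone were 0.74 ± 0.18 for Creld2, 0.69 ± 0.18 for Sdf2l1 and 0.33 ± 0.15 for Manf. Those of A14 alone were 0.33 ± 0.19, 0.65 ± 0.18 and 0.15 ± 0.16. Hspa5, which encodes the ER chaperone BiP, was at 705, 1245, 839 and 924 CPM with a B6 median of 601.0 CPM, and its difference was 0.48 ± 0.14 (adjusted p = 0.0205). The interactions of these 4 genes ranged from -0.26 ± 0.33 for Sdf2l1 to 0.46 ± 0.21 for Hspa5, and none passed. Replicates 2 and 5 were highest for Creld2, Manf and Hspa5. Without replicate 2, 6 of the 22 genes were called, and 2 with 10 surrogate variables. In the ERAD list 5 genes were higher than B6, with Derl2, a component of the exit channel, at 77.3, 77.2, 76.4 and 92.9 CPM and a difference of 0.39 ± 0.06 (adjusted p = 1.58e-05). Vcp, the ATPase that pulls proteins from the ER, was the 1 lower member (-0.22 ± 0.08, adjusted p = 0.0336). Of the 6 ERAD calls in both directions, 2 were left without replicate 2.

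Fatty acid oxidation and ketone body synthesis supply the fasted liver with energy, and most of their genes are targets of the receptor PPAR alpha. Of 28 measured genes, 16 were lower in the double strain than in B6 (4.67% of all genes were lower) and 1 was higher, Cyp4a32. The median difference was -0.34 in the double strain, with medians of -0.30 for A14 and -0.16 for A4. Cpt1a, which controls the entry of fatty acids into mitochondria, was at 420, 551, 615 and 429 CPM against 499 to 1075 CPM in B6 (median 798), a difference of -0.69 ± 0.13 (adjusted p = 0.000148). Bdh1, an enzyme of ketone body synthesis, was lower by -0.84 ± 0.17 (adjusted p = 0.000398), and Acadl, an acyl-CoA dehydrogenase, by -0.51 ± 0.11 (adjusted p = 0.000526). For all 3 the double strain overlapped with the lower part of the B6 range. In the interaction edgeR called 0 of the 28 genes, with 3 at an unadjusted p under 0.05 and 0 called by DESeq2. The direct comparison called 17 of them in all, and 8 without replicate 2, 9 without replicate 5 and 3 with 10 surrogate variables.

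**Figure D4:**
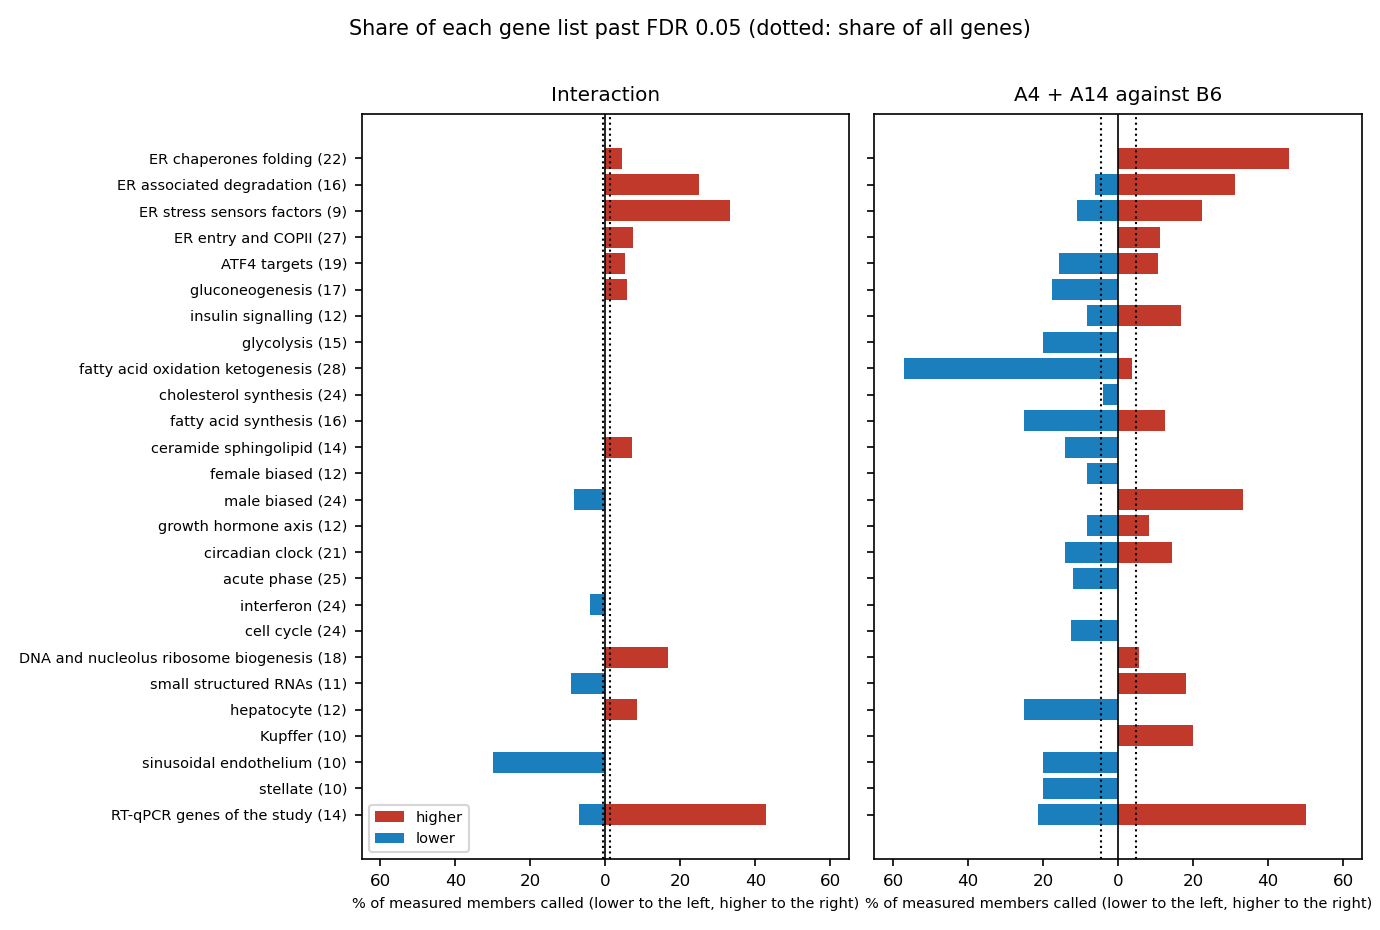
Percentage of the measured members of each gene list (number in brackets) that were called higher (red, to the right) or lower (blue, to the left) in the interaction and in the double strain against B6. Dotted lines are the percentages over all genes (1.16% and 0.775%, 4.68% and 4.67%). Bars for the 4 ER lists extend to the right alone in the first panel and mainly to the right in the second, where that for fatty acid oxidation extends mainly to the left.

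Other metabolic lists are read against the 4.67% of all genes that were lower than in B6 and the 4.68% that were higher. In gluconeogenesis 3 of 17 genes were lower, among them Pcx and Fbp1 (-0.39 ± 0.08, adjusted p = 0.000549). Pcx, pyruvate carboxylase, was at 287, 340, 360 and 312 CPM, below all B6 mice (median 499 CPM), with a difference of -0.61 ± 0.13 (adjusted p = 0.000526). A14 alone differed from B6 by -0.55 ± 0.10 for Pcx and -0.41 ± 0.06 for Fbp1, and A4 alone by -0.27 ± 0.10 and -0.08 ± 0.06. The list medians were -0.11 in the double strain, -0.27 in A14 and -0.10 in A4. In glycolysis and glucose uptake 3 of 15 were lower, which were Eno1 (-0.52 ± 0.09, adjusted p = 7.81e-06), Ldha (-0.65 ± 0.12, adjusted p = 0.000182) and the glucose transporter gene Slc2a2 (-0.80 ± 0.16, adjusted p = 0.000506). For these genes A14 alone differed by -0.45, -0.52 and -0.38, and A4 alone by -0.36, -0.33 and -0.32. Medians of this list were -0.18 in the double strain, -0.27 in A14 and -0.11 in A4, and those of fatty acid synthesis -0.06, -0.20 and -0.04. Grb14, an inhibitor of the insulin receptor, was at 42.3, 40.3, 42.7 and 38.6 CPM with a B6 median of 58.6 CPM, lower by -0.49 ± 0.08 (adjusted p = 1.58e-05). Igfbp3, a carrier of insulin-like growth factors, was at 19.1, 18.6, 31.6 and 29.1 CPM, below all B6 mice (33.5 to 55.8 CPM), and lower by -0.71 ± 0.13 (adjusted p = 9.13e-05). In fatty acid synthesis 4 of 16 genes were lower, including the elongase Elovl5 (-0.95 ± 0.20, adjusted p = 0.000526) and the desaturase Fads1 (-0.49 ± 0.11, adjusted p = 0.00156), and 2 were higher, Me1 (0.59 ± 0.15, adjusted p = 0.00561) and Mlxipl (0.42 ± 0.10, adjusted p = 0.00437). Of 24 genes of cholesterol synthesis 1 was lower, which is below the share of all genes, the sterol carrier gene Stard4 (-0.80 ± 0.21, adjusted p = 0.00736), a call lost without replicate 4. The median of this list was nevertheless -0.33 in the double strain, with -0.10 in A14 and 0.05 in A4. Of the 24 differences from B6, 2 were above 0 and 12 had an unadjusted p under 0.05, as had 3117 of all 13289 genes.

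Among ATF4 targets, 2 of 19 were higher than in B6 and 3 lower, where 4.68% and 4.67% of all genes were, and of these 5 calls 3 were left without replicate 1 and 2 without replicate 2. Sesn2 was at 11.2, 14.4, 10.1 and 11.6 CPM, above all B6 mice (4.51 to 9.99 CPM), and higher by 0.77 ± 0.18 (adjusted p = 0.000556). Asns, asparagine synthetase, was lower by -1.56 ± 0.42 (adjusted p = 0.00958), where A14 alone differed by -1.65 ± 0.32 and A4 alone by -0.23 ± 0.28. Ddit4 was at 4.69, 9.35, 35.7 and 117.02 CPM in the 4 mice and its call (1.61 ± 0.42) was lost without replicate 5. In the circadian clock, read against the same shares, 3 of 21 genes were higher, namely Nfil3 (1.09 ± 0.29, adjusted p = 0.00907), Clock (0.27 ± 0.07, adjusted p = 0.00911) and Cry1 (0.76 ± 0.22, adjusted p = 0.0141), and 3 were lower, with Dbp at -2.23 ± 0.66 (adjusted p = 0.0198). All 3 calls of higher genes were lost without replicate 5. The hour of tissue collection for each mouse is not given in the sources used here.

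Among the genes lower than in B6, the smallest adjusted p-values belonged to Hnrnpa1, an RNA-binding splicing regulator (28.7, 23.9, 30.0 and 20.3 CPM against a B6 median of 44.4 CPM, difference -0.77 ± 0.10, adjusted p = 3.45e-09), and to Ccdc122 on chromosome 14 (3.94, 3.27, 5.61 and 3.75 CPM, below all B6 mice, -0.87 ± 0.13, adjusted p = 1.08e-07 within the genes on chromosomes 4 and 14). Masp2, a serine protease of the lectin complement pathway on chromosome 4, was at 137.8, 160, 155 and 130 CPM, below all B6 mice (167 to 219 CPM), and lower by -0.38 ± 0.06 (adjusted p = 3.68e-07). Vwa8 (-0.64 ± 0.11), the angiotensin receptor gene Agtr1a (-0.51 ± 0.08), the ribosomal protein gene Rpl3 (-0.62 ± 0.09) and the ephrin receptor gene Epha1 (-0.84 ± 0.13) were lower as well, with adjusted p-values from 8.92e-07 to 4.91e-06. Hnrnpa1 and Rpl3 have processed pseudogene copies, so their counts are uncertain. The interactions of these 7 genes lay between -0.25 and 0.10, and none passed. Of the markers of other cell types, 2 of 10 Kupffer cell markers were higher than in B6 (4.68% of all genes), and 2 of 10 endothelial and 2 of 10 stellate cell markers were lower (4.67% of all genes), and without replicate 2 none of these 6 calls was left. Of 12 hepatocyte markers 3 were lower, Apoa1 (-0.36 ± 0.09), Cps1 (-0.41 ± 0.12) and Asgr1 (-0.28 ± 0.07), with adjusted p-values of 0.00777, 0.0157 and 0.00292. The median difference of the hepatocyte list was -0.19, 1 of the 12 values was above 0, and 1 call was left without replicate 1 or without replicate 2. The part of this in the lower metabolic genes was not tested. The skeletal muscle myosin Myh4 was at 24.8, 0, 0 and 5.30 CPM, and its call was lost without replicate 1.

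**Figure D5:**
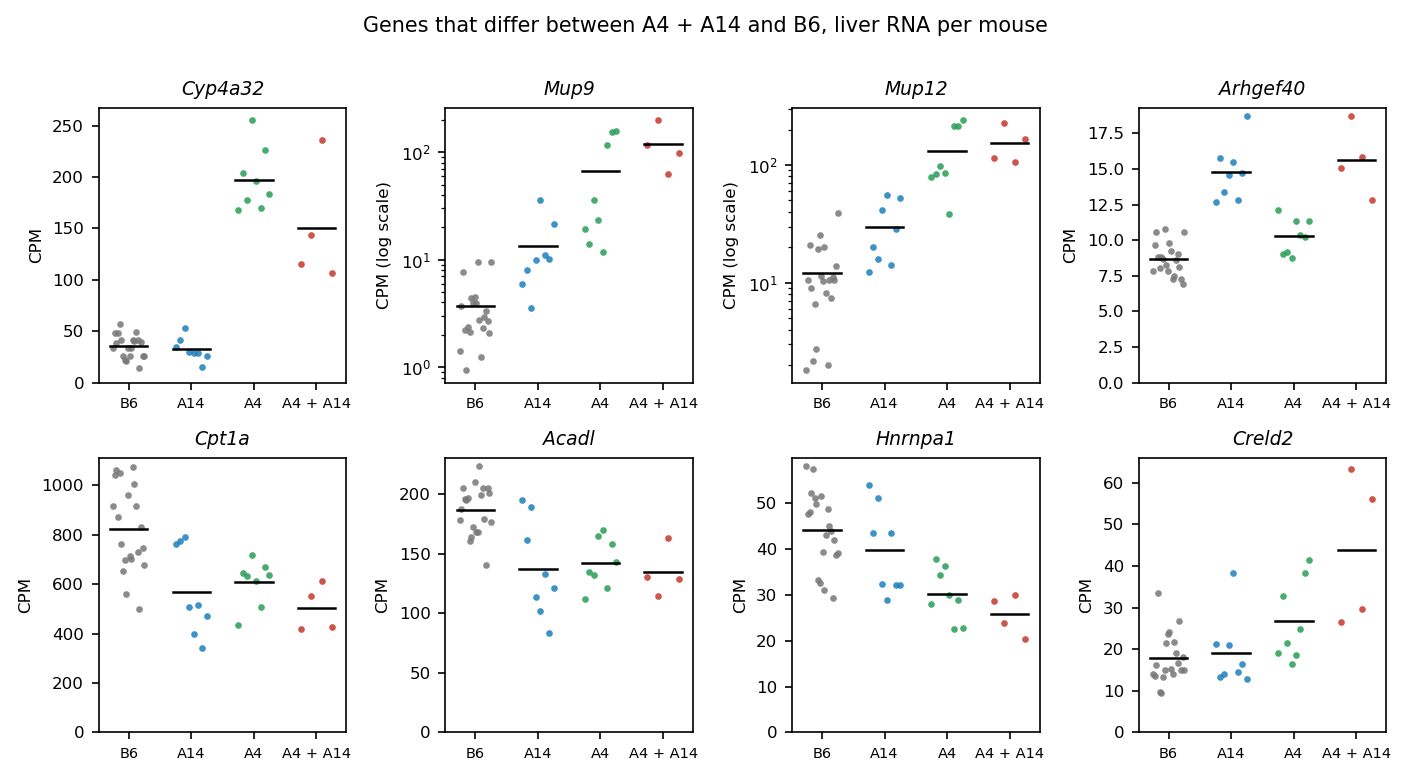
Levels in CPM of 8 transcripts that differed between the double strain (A4 + A14) and B6, 1 point per mouse with means (lines), where Mup9 and Mup12 are on a log scale. Cyp4a32, Mup9, Mup12 and Arhgef40 of the double strain lie above all B6 mice, and Cpt1a, Acadl, Hnrnpa1 and Creld2 overlap with B6.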

How the data were processed

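Liver RNA of 154 mice was sequenced as single-end 50-base reads from stranded total RNA libraries on 4 flow cells, with no record here of which library ran on which. The authors aligned reads with TopHat2 to mm10, tried reads left unaligned against an A/J version of the genome, obtained gene counts with HTSeq and deposited these raw counts once genes with low counts were removed. Gene positions and symbols were taken from GENCODE vM21 (GRCm38), which placed 13242 of the 13289 genes, and the other 47 were counted with the unsubstituted chromosomes.

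Counts were TMM-scaled and fitted in edgeR 4.0.16 (quasi-likelihood F-test, R 4.3.3) over 153 mice of 24 strains, with terms for 8 substituted chromosomes, 15 pairs of them and 5 surrogate variables (sva 3.50.0). Benjamini-Hochberg adjustment was done separately for genes on and off chromosomes 4 and 14, at a false discovery rate of 0.05. The SE is the log2 difference divided by the square root of F. Mice of a strain were taken as replicates, and each p-value sets a difference against the spread between mice within strains. This spread was estimated once per gene over all 153 mice, so it is not that of the double strain alone. Some mice may share a litter. In simulated data for the interaction over 13289 genes, 90 of 100 genes changed by 1 log2 unit and 99 of 100 changed by 1.5 were recovered, and 13 of 202 called genes were false. The changed genes all had an average log2 CPM of at least 2. Apart from these changes each gene had the same simulated level in all strains, with no single effects and no variation of the kind surrogate variables describe. The rates therefore need not hold for the real data. DESeq2 1.42.0 was an alternative.

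Among called genes whose average log2 CPM reached 2, the 8 higher and 8 lower with the smallest p in each comparison and 3 on each substituted chromosome were named. Up to 4 called members of each gene list and the 14 genes of the study's RT-qPCR were named without this minimum, such as Nat8 (0.55) and Myh4 (1.21). Polr1b, Utp20, the called ER genes and other list members given only as part of a count are named to account for that count. The genes and lists were chosen with earlier results of these data known. Promoter sequences came from RefSeq (GRCm38.p6).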

Additional observations from a re-analysis of the deposited data

Results flagged for a closer look

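Among 45 genes, 135 groups of mice were searched for a single mouse far from the rest by Dixon's criterion, which chance meets in about 1 in 20 groups, and 6 were found. In the double strain these were Dnajb9 in replicate 5 (70.26 CPM, next highest 52.4 CPM), Rpl3 in replicate 4 (79.81 CPM, next 63.39 CPM) and Ldha in replicate 4 (678.65 CPM, next 486.87 CPM). In the single strains they were Slc30a5 in A4 replicate 2 (42.52 CPM, next 36.22 CPM), Klhl21 in A14 replicate 8 (27.07 CPM, next 21.35 CPM) and Cyp3a16 in A14 replicate 6 (4.295 CPM, next 1.901 CPM). Dnajb9 kept its interaction call without replicate 5.

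The mouse left out of the double strain stood outside the B6 range for female-biased transcripts. It had 62.49 CPM of Cyp3a16, where the highest B6 mouse had 2.276 CPM, 320.31 CPM of Cyp2b9 (highest B6 mouse 37.73 CPM) and 17.76 CPM of Cux2 (highest B6 mouse 7.377 CPM). Its 4 Y-linked genes summed to 2.944 CPM, and the lowest of all other mice had 227.5 CPM.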

How the results depend on the processing

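No paired analysis was possible because the labels give no replicate numbers that mice of different strains share. The interaction was called for 1.93% of the genes tested (257 genes). This share became 5.97% with no surrogate variables (794 genes), 0.452% with 10 surrogate variables (60 genes), 8.49% when genes needed 15 counts in every mouse (797 genes), 0.331% at a false discovery rate of 0.01 (44 genes), 7.89% with only the 4 strains in the fit (1049 genes) and 4.63% with the left-out mouse included (615 genes). Leaving out 1 mouse of the double strain gave 0.956% to 2.53%, lowest without replicate 5. Of the called genes 59.9% were higher, and 71.7% were with 10 surrogate variables, 45.4% with 15 counts in every mouse and 86.4% at the stricter rate. The share called against B6, 9.35%, became 5.57% with no and 3.48% with 10 surrogate variables, 4.21% at a rate of 0.01, 5.36% with only the 4 strains and 3.78% to 10.7% with 1 mouse left out. The cause of these changes was not tested, other than the threshold itself for the stricter rate.

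Of 33 named interaction calls, 12 passed under every alternative that gave a value, namely Txlna, Dnajb9, Sec23b, Slc30a5, Eif2ak3, Creb3l2, Alg2, Ppat, Cers6, Syvn1, Xbp1 and Rprl3. Against B6, 34 of 83 named calls did, and no named call changed sign. With 4 mice in the double strain, the median SE of an interaction was 0.16, and interactions of that size were not detectable for most genes. Larger ones could be missed as well. The called interactions had a median absolute size of 0.56 and a smallest of 0.23, and Nop2, of ribosome biogenesis, did not pass at 0.54 ± 0.17 (adjusted p = 0.0613).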
